A study of Mus musculus with 62 samples.

Results

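The 47 genes described here encode proteins of the extracellular matrix, enzymes that build or cut it, and markers and signals of the hepatic stellate cell. They were taken as a named list of symbols, chosen with earlier results of these data known, and matched to 47 of the 56884 genes in the deposited table. Counts of members set beside shares of all genes therefore describe this list and do not test it. All 47 passed the filter on low counts, among 16087 genes tested. They fall into 5 role groups: 7 fibrillar collagens, 9 basement membrane and other collagens, 8 cross-linking and remodelling enzymes with their inhibitors, 14 glycoproteins, proteoglycans and elastic fibre proteins, and 9 genes of the stellate cell itself with its receptors and ligand.

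The stellate cell lies between hepatocytes and the sinusoidal endothelium and stores retinol esters. When the liver is injured it can turn into a myofibroblast, driven by transforming growth factor beta and platelet-derived growth factor, and secrete fibrillar collagen. Lysyl oxidases then cross-link the fibrils, matrix metalloproteinases cut them and tissue inhibitors of metalloproteinases block that cutting.

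Liver RNA was sequenced from male mice of the inbred strain C57BL/6J. From 5 weeks of age they were fed for 12 weeks on a Western diet, WD, in which fat gave 42% of the energy and protein 15.2%. At 17 weeks they were randomised to a sham operation or to sleeve gastrectomy (SG), which removed about 75% of the stomach. From day 7 they stayed on WD or ate P36, P21 or P7, named for their 36%, 21% or 7% of energy as protein, all with 20% as fat. Livers were collected 14 weeks post-operatively, when mice had fasted for 16 h and refed for 4 h. WD therefore differs from the other 3 diets in fat as well as in protein, and all WD, P36, P21 and P7 mice share the earlier WD period. Other mice are labelled chow; its make-up, and whether these mice had eaten WD, is not stated in the labels. There were 8 sham WD, 8 SG WD, 5 sham P36, 4 SG P36, 7 sham P21, 6 SG P21, 7 sham P7, 7 SG P7 and 4 sham chow libraries, and 1 SG chow library that entered no test. Mice were housed in pairs, and no label says which shared a cage.

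Library totals ran from 6.99 M to 34.01 M counts. The tissue label fits the markers: 6 hepatocyte genes such as Alb together made up between 42730 and 108600 CPM in every library (CPM, counts scaled to a common library size). Bulk tissue cannot tell a larger number of cells of one type from more RNA per cell, and this holds for every result below. Levels are CPM scaled by the trimmed mean of M-values, given as they stand for comparisons of 1 gene between libraries. Fold changes are log2 values with their standard error from edgeR's quasi-likelihood test, and a gene is called, and said to rise or fall, where its p-value adjusted over all genes tested is below 0.05.

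Promoter sequence is shown for 4 members whose transcripts separate the results that follow: Col1a2 and Col3a1, fibrillar collagens that rose most among the collagens beside Col1a1, Timp1, the inhibitor with the largest rise, and Lrat, the retinol-esterifying enzyme of the quiescent stellate cell, which was not called on WD. Each is the 250 bases before the start of the gene, 5′ to 3′ on the gene's strand, from RefSeq on build GRCm38.p6, which is not the GRCm39 build of the counts. Capitals mark CCAAT or TATAAA on either strand, so that ATTGG is CCAAT on the other strand. The regions are chr6:4505368-4505617 (+) for Col1a2, chr1:45311288-45311537 (+) for Col3a1, chrX:20869916-20870165 (+) for Timp1 and chr3:82903975-82904224 (-) for Lrat.
Col1a2: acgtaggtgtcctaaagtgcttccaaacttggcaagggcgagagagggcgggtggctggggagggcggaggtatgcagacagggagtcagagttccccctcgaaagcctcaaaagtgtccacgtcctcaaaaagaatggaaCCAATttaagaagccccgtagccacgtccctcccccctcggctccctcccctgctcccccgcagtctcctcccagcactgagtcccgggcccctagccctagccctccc
Col3a1: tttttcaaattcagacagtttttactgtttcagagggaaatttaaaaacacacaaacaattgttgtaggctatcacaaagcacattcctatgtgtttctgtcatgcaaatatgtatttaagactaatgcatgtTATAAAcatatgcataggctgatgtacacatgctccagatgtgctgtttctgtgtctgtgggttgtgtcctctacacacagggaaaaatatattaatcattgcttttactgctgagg
Timp1: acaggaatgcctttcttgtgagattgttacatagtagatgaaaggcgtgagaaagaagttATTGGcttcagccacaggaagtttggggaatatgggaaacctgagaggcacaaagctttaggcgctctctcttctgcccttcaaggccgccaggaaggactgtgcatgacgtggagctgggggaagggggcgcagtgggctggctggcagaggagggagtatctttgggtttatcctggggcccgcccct
Lrat: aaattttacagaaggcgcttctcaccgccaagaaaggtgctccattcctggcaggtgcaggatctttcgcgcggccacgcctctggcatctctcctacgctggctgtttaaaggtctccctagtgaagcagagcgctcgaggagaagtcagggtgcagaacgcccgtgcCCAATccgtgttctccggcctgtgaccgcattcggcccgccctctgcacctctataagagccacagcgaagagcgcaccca

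Of the 47 members, 31 had a promoter in the RefSeq table. CCAAT, on either strand, stood in 11 of these 31 (35.5%) and in 33.8% of 32851 promoters of the same length, and TATAAA in 5 of 31 (16.1%) against 12.4%. Each of the 4 sequences shown holds 1 of these 2 motifs. A match to these letters is a description of the window.

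On continued WD, sham livers held more transcript of most matrix genes than sham chow livers. Of the 47 members 37 rose and 0 fell, while 17.1% of all genes tested rose, 14.5% fell and 31.7% were called in either direction. In 10 of the 47 every WD library lay above every chow library, but the share of all genes that did so was not computed. The median log2 fold change was 1.61 over the members and -0.01 over all genes. Leaving out any 1 library of the comparison left between 32 and 41 members called, and 31 of the 37 were called without each library in turn. Those that lost the call without some library were Col12a1, Col15a1, Dpt, Lox, Reln and Timp2. Col15a1 lost it without any 1 of 6 libraries.

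The fibrillar collagens held the largest change among the collagens, and 5 of the 7 rose. Col1a1, a chain of type I collagen, the main collagen of scar tissue, had 2.05, 5.25, 1.87 and 2.84 CPM in the 4 sham chow libraries. In the 8 sham WD libraries it ran from 6.41 to 124 CPM with a median of 42.5. Every WD library stood above every chow library, and the log2 fold change was 4.25 ± 0.68 (adjusted p = 3.98e-06, edgeR). Its partner chain Col1a2 rose by 3.29 ± 0.52 on the log2 scale and did not overlap between the groups either. Col3a1, the type III collagen that forms fibrils with type I, had 11.0, 28.0, 11.8 and 16.1 CPM on chow and 20.2 to 294 on WD, with a median of 140.0. Here the lowest WD library lay below the highest chow library, and the log2 fold change was 3.12 ± 0.51. Col5a1 and Col5a2, chains of the type V collagen that starts fibrils, rose by 1.29 ± 0.25 and 1.96 ± 0.41. Col5a3 (-0.11 ± 0.26) and Col27a1, a fibrillar collagen known from cartilage (0.32 ± 0.42), did not pass the test.

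All 9 basement membrane and other collagens rose, by log2 values from 0.97 to 2.28. Col16a1, a collagen that sits on fibrils, was the highest, at 2.28 ± 0.34, and its libraries did not overlap between groups (0.78 to 1.31 CPM on chow and 2.89 to 8.95 on WD). Col4a1 and Col4a2, the chains of basement membrane collagen, rose by 1.80 ± 0.29 and 1.20 ± 0.26. The chains of the beaded-filament collagen, Col6a1, Col6a2 and Col6a3, rose by 1.62 ± 0.28, 2.02 ± 0.37 and 2.24 ± 0.39. Col12a1 (1.18 ± 0.37), Col14a1 (1.79 ± 0.26) and Col15a1 (0.97 ± 0.34), which link fibrils or basement membranes, completed the group.

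Among enzymes and inhibitors 7 of 8 rose. Timp1, an inhibitor of matrix metalloproteinases, had 0, 0.03, 0.04 and 0.16 CPM on chow, from 0 to 4 counts a library. On WD it ran from 0.13 to 7.2 CPM with a median of 3.50, so that the lowest WD library overlapped chow. Its fitted log2 fold change of 5.90 ± 0.96 (adjusted p = 6.2e-06, edgeR) was the largest of the 47 and rests on 6 counts in all of chow. Mmp13, a collagenase, rose by 4.47 ± 1.07 from 14 counts on chow. Mmp2, a gelatinase, rose by 2.21 ± 0.51, and the lysyl oxidases Lox, Loxl1 and Loxl2 rose by 1.94 ± 0.68, 1.96 ± 0.45 and 1.81 ± 0.36. Lox had 6 to 30 counts per chow library and was not called without sham WD replicate 6 or without sham chow replicates 1, 5 or 6, each left out alone. Timp2, a second inhibitor, rose by 0.92 ± 0.30, and Mmp14, the membrane-bound metalloproteinase that activates Mmp2, had a log2 fold change of -0.17 ± 0.19.

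Of the 14 glycoproteins, proteoglycans and elastic fibre proteins, 11 rose. The small leucine-rich proteoglycans Lum, Bgn and Dcn, which bind collagen fibrils, had log2 fold changes of 2.43 ± 0.51, 1.08 ± 0.22 and 0.95 ± 0.24. Adamtsl2, a secreted glycoprotein of microfibrils that limits transforming growth factor beta, rose by 2.04 ± 0.36, and its 4 chow libraries (4.08 to 6.55 CPM) lay below all 8 WD libraries (9.99 to 41.8). Thbs1 and Thbs2, the thrombospondins, rose by 1.97 ± 0.55 and 1.64 ± 0.39. Fbn1, the backbone of microfibrils, rose by 1.69 ± 0.38. Sparc, a collagen-binding glycoprotein, rose by 1.5 ± 0.27, and Tgfbi, a matrix protein induced by transforming growth factor beta, by 1.35 ± 0.20. Fstl1, a secreted glycoprotein, rose by 1.90 ± 0.40 and Dpt, a collagen-binding protein, by 1.61 ± 0.56. Eln (0.86 ± 0.41), Mfap4 (1.29 ± 0.58), both of elastic fibres, and Lamc3, a laminin chain (0.52 ± 0.37), were not called.

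The stellate cell group moved less evenly, and 5 of 9 rose. Vim, an intermediate filament of mesenchymal cells, rose by 1.86 ± 0.34, the growth factor receptors Pdgfrb and Pdgfra by 1.52 ± 0.26 and 0.98 ± 0.28, the ligand Tgfb1 by 1.27 ± 0.27 and Reln, a glycoprotein that marks stellate cells, by 0.78 ± 0.25. Lrat had 15.6, 29.1, 23.3 and 17.2 CPM on chow and 17.8 to 46.9 on WD, median 27.0. These groups overlapped, and its log2 fold change of 0.48 ± 0.23 was not called (adjusted p = 0.105, edgeR). Acta2, the smooth-muscle actin used as a myofibroblast marker, had 2.08, 32.9, 4.16 and 11.6 CPM on chow and 3.23 to 42.7 on WD, median 7.81. A single library in each group held the high value, and the log2 fold change was -0.07 ± 0.83. Des, a muscle and stellate cell filament (0.42 ± 0.38), and Tagln, an actin-binding protein of contractile cells (1.17 ± 0.52), were not called either. Sham chow replicate 2, with the highest Acta2 of its group, was also the highest of the 4 in 38 of the 47 members. The 6 smooth muscle markers summed to 7.28 to 59.9 CPM on chow and 12.5 to 48.6 on WD, and their part in these values was not tested.

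Per kilobase of exon, which allows levels to be compared between genes, Dcn, Bgn, Sparc and Tgfbi were the 4 highest members in both sham groups. Dcn had a mean of 23.7 CPM per kilobase on chow and 44.5 on WD. Col1a1 stood 37th of the 47 on chow, at 0.46 CPM per kilobase, and 13th on WD, at 8.47. Col3a1 moved from 20th to 5th, at 1.71 and 14.3 CPM per kilobase, and Timp1 from 46th to 23rd.

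**Figure D1:**
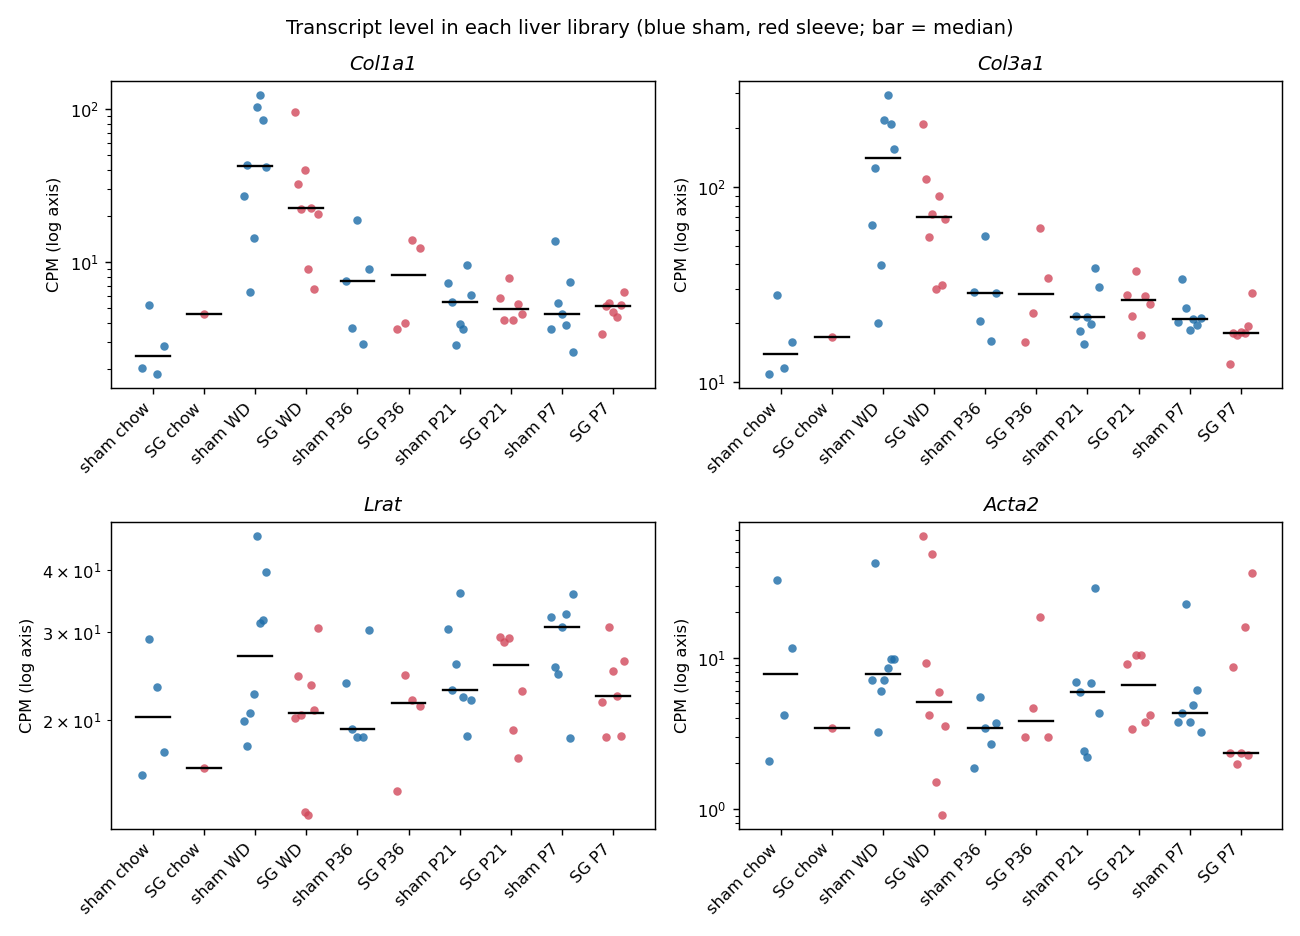
Level (CPM, log axis) of Col1a1, Col3a1, Lrat and Acta2 in every library by group, blue for sham and red for sleeve, with a bar at the group median. All 8 sham WD libraries lie above the 4 sham chow libraries for Col1a1, and the groups overlap for Lrat and Acta2.

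Markers listed for other cell types moved beside the members, and the part of those cells in the members' changes was not tested. All 7 lipid-associated macrophage markers rose on WD, by log2 values from 0.99 to 6.39, and their summed level ran from 82.6 to 94.7 CPM on chow and from 86.5 to 880 on WD. Of 6 Kupffer cell markers 4 rose, and of 13 further stellate cell markers outside the 47 genes 7 rose and 0 fell, with summed levels of 258 to 301 CPM on chow and 378 to 717 on WD. Of 7 sinusoidal endothelial markers 1 rose and 1 fell, of 7 portal fibroblast and mesothelial markers 0 were called, and of 6 hepatocyte markers 1 fell. Of 6 adipocyte markers tested (7 listed) 2 rose, Cfd and Cidec, and all 6 had positive log2 fold changes, median 0.75, with summed levels of 1819 to 2694 CPM on chow and 2029 to 4767 on WD. Bulk tissue cannot tell whether adipocytes or other cells of the liver gave this RNA, so it does not show adipocytes. Of 6 cholangiocyte markers 0 were called, although all 6 were positive, median 0.86, with summed levels of 7.52 to 16.5 CPM on chow and 7.25 to 36.3 on WD. None of these markers of the liver's own cells was at 0 throughout a WD or a sham chow group. The share of counts from mitochondrial genes was 9.93% to 13.3% on chow and 6.14% to 9.81% on WD. Of 44 further genes of matrix assembly and transforming growth factor beta signalling, 26 rose and 2 fell. Tgfbr2, a receptor subunit for that growth factor, rose by 1.39 ± 0.18, Pcolce, which speeds the trimming of procollagen, by 1.70 ± 0.26, and Mmp12, a macrophage elastase that is also one of the 7 macrophage markers, by 6.08 ± 0.95.

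In sham mice moved to the 3 lower-fat diets, most members were lower than on continued WD. On P21, 38 of 47 members fell and 0 rose, where 17.8% of all genes fell, 14.4% rose and 32.1% were called. On P36, 35 fell and 0 rose, where 10.9% of all genes fell, 7.28% rose and 18.2% were called. On P7, 28 fell and 1 rose, where 18.4% fell, 17.3% rose and 35.7% were called. The median log2 fold changes over the members were -1.25, -1.25 and -0.86. Left out 1 at a time, the libraries left 36 of the 38 calls on P21, 27 of the 35 on P36 and 20 of the 29 on P7 standing in every case. These 3 comparisons and that with chow share the 8 sham WD libraries, so the values are set side by side and their likeness is not a separate result.

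Col1a1 ran from 2.89 to 9.65 CPM on P21, median 5.52, from 2.59 to 13.9 on P7, median 4.58, and was 7.57, 3.75, 18.9, 2.91 and 9.06 on P36. The lowest sham WD library, at 6.41 CPM, overlapped all 3 groups. Its log2 fold changes against sham WD were -3.35 ± 0.50 on P21, -3.23 ± 0.50 on P7 and -2.76 ± 0.56 on P36. Col3a1 fell by 2.61 ± 0.39 on P21, 2.63 ± 0.39 on P7 and 2.27 ± 0.44 on P36, and Col1a2 by 2.64 ± 0.40, 2.52 ± 0.39 and 2.28 ± 0.44. Timp1 ran from 0.08 to 0.36 CPM on P21 and from 0.14 to 0.54 on P7, and on P36 it was 0.20, 0.24, 2.23, 0.05 and 0.64. Its log2 fold changes were -3.92 ± 0.65, -3.38 ± 0.60 and -2.42 ± 0.64. Lox fell by 2.81 ± 0.60, 2.68 ± 0.58 and 2.55 ± 0.66 in the order P21, P7 and P36, and limma-voom did not call it on P36.

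Most genes of the other role groups were lower too. Of the 9 basement membrane and other collagens 8 fell on P21, 8 on P36 and 7 on P7. Col4a1 fell by 1.43 ± 0.23 on P21 and by 1.43 ± 0.26 on P36, Col12a1 by 1.57 ± 0.32 on P21, and Col14a1 by 1.28 ± 0.21 on P7, where its libraries lay wholly below WD. Of the 8 enzymes and inhibitors 7, 7 and 6 fell, and Loxl2 was at -1.39 ± 0.32 on P36. Of the 14 glycoproteins, proteoglycans and elastic fibre proteins 13, 11 and 8 fell. Thbs1 fell by 2.13 ± 0.46, 1.96 ± 0.51 and 1.59 ± 0.43 on P21, P36 and P7, and Sparc by 1.33 ± 0.22, 1.43 ± 0.25 and 1.16 ± 0.22. Vim fell by 1.56 ± 0.27, 1.33 ± 0.30 and 1.00 ± 0.26 in the same order, and Tagln by 1.54 ± 0.48 on P36. That Tagln call was lost without sham WD replicate 2 (-1.25, adjusted p = 0.0584, edgeR) and without sham P36 replicate 1 (-1.40, 0.0608) or 5 (-1.47, 0.0585).

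Some members were lower on P21 and P36 but not called on P7. Bgn had -1.06 ± 0.18 on P21 and -0.95 ± 0.20 on P36, both called, and -0.37 ± 0.18 on P7. Adamtsl2 (-1.29 ± 0.28, -1.25 ± 0.32 and -0.62 ± 0.27) and Pdgfrb (-0.92 ± 0.20, -0.82 ± 0.23 and -0.44 ± 0.20) were likewise called on P21 and P36 and not on P7. In the direct tests given further on, Bgn was called higher on P7 than on P21 and on P36. Its call against P36 was lost without any 1 of 8 libraries. Adamtsl2 and Pdgfrb were called in neither direct test, so a difference of P7 is not shown for them. Col5a3 was the member that rose on P7, by 0.63 ± 0.22, a call lost without sham WD replicate 8 or sham P7 replicates 3 or 7, each left out alone. Mmp14 had log2 fold changes between -0.02 and 0.01 on the 3 diets. Of the stellate cell genes 5 of 9 fell on P21, 4 on P36 and 2 (Vim and Tgfb1) on P7, and the Tgfb1 call on P7 was lost without sham WD replicate 5 or sham P7 replicate 5. Lrat was at -0.22 ± 0.19, -0.43 ± 0.21 and -0.01 ± 0.19 on P21, P36 and P7, and Acta2 at -0.54 ± 0.71, -1.83 ± 0.85 and -0.74 ± 0.71, none called. Des was not called either, at -0.45 ± 0.32, -0.43 ± 0.36 and 0.15 ± 0.32.

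Among the 44 further matrix genes 30 fell and 2 rose on P21, 25 fell and 1 rose on P36, and 23 fell and 1 rose on P7. Tgfbr2 fell on all 3, by 1.09 ± 0.14 on P21, 1.28 ± 0.16 on P36 and 1.40 ± 0.14 on P7. Postn, a matrix protein of active fibroblasts, fell by 2.15 ± 0.29, 1.48 ± 0.32 and 1.86 ± 0.29. Of the 7 lipid-associated macrophage markers 6, 6 and 5 fell on P21, P36 and P7, and of the 13 further stellate cell markers 5, 4 and 4, with 1 rise on P7. In the same order 3, 2 and 3 of the 6 Kupffer cell markers fell, 3, 0 and 0 of the 6 cholangiocyte markers fell with 1 rise on P7, and 2 of the 6 adipocyte markers tested fell on each diet. Of the 6 hepatocyte markers 2, 1 and 3 rose. Of 5 skeletal muscle markers tested 3 rose on P36. The part of these cells in the members' changes was not tested.

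Set against chow, the mean of the 3 lower-fat sham groups was higher for 1 member, Col16a1, where 0.895% of all genes rose, 0.87% fell and 1.77% were called. The 4 chow libraries held 1.27, 1.31, 1.19 and 0.78 CPM of Col16a1. The 5 P36 libraries held 3.09, 2.23, 3.38, 2.27 and 2.96, P21 ran from 1.88 to 2.72 and P7 from 0.81 to 4.66. P36 and P21 lay wholly above chow, P7 overlapped it, and the log2 difference was 1.14 ± 0.30 (adjusted p = 0.0308, edgeR). The call was lost without any 1 of the 4 chow libraries, and 2 members were called without sham P21 replicates 2 or 3 or sham P7 replicate 4, each left out alone, and 3 without sham P7 replicate 7. The members' median was 0.48, 41 of 47 were positive, and 15 had an unadjusted p below 0.05. Over all genes the median was 0.007, and those counts were not made. Col1a1 (1.14 ± 0.55), Col3a1 (0.61 ± 0.41), Timp1 (2.66 ± 0.94), Lox (-0.74 ± 0.59), Acta2 (-1.11 ± 0.70), Des (0.18 ± 0.35) and Lrat (0.26 ± 0.21) were among those not called. By other fits, DESeq2 called 6 members and a fit of these groups alone called 9, without the share of all genes called beside them.

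**Figure D2:**
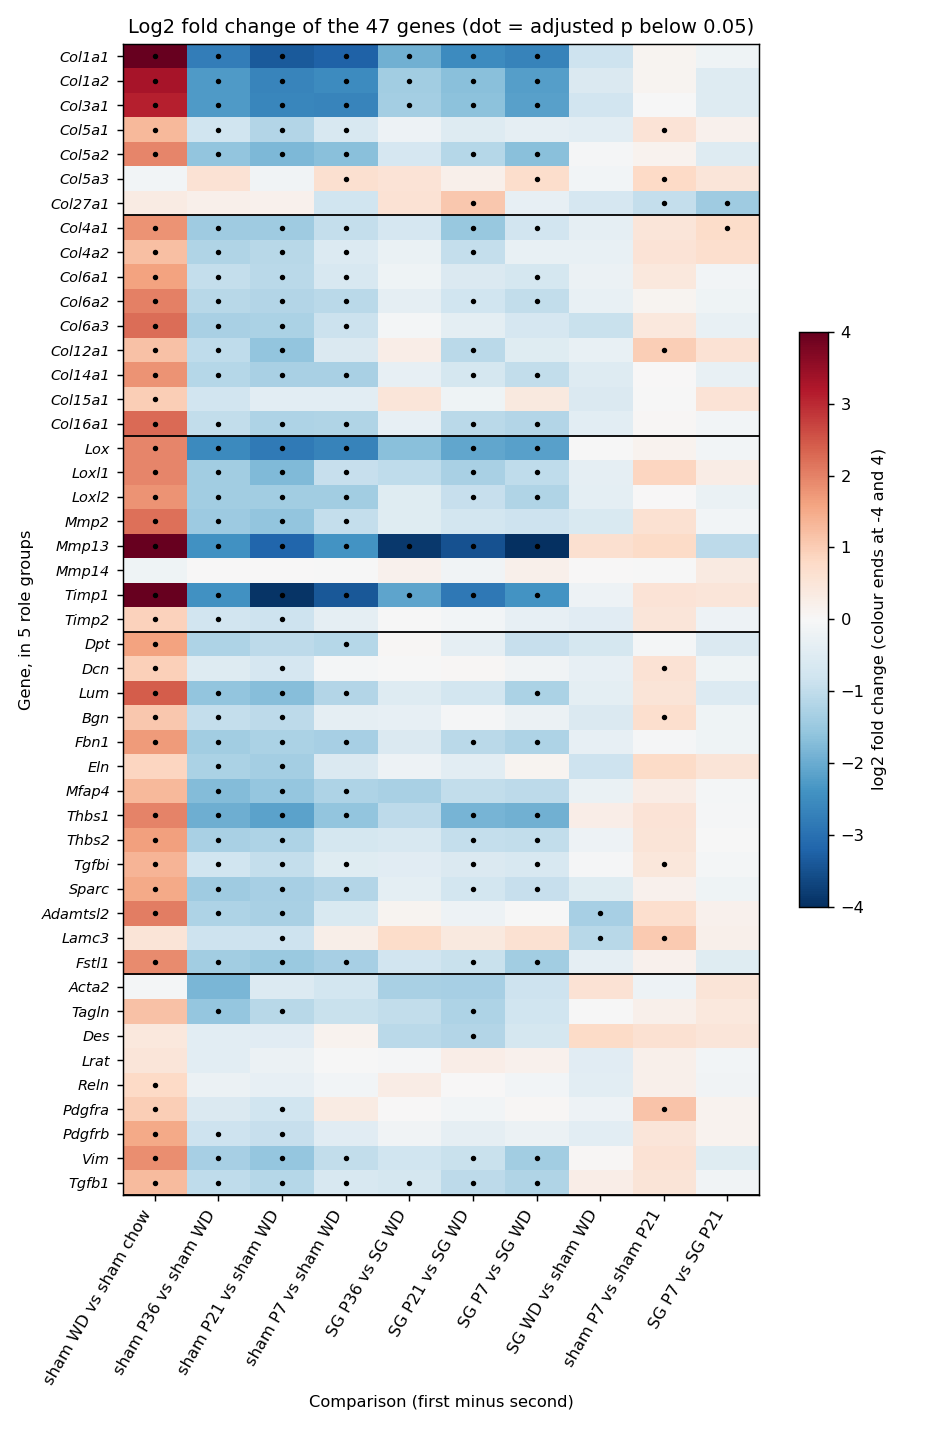
Log2 fold change of the 47 genes (rows, in 5 role groups parted by lines) in 10 comparisons (columns, first group minus second), with a dot where the adjusted p is below 0.05 and colour limited to -4 to 4. The WD column is red for 37 called genes, and the sham P21 column is blue for 38.

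Fewer members were called when P7 was set against the other lower-fat diets, which hold more protein. These diets have the same share of energy as fat, so the rest of their energy differs along with protein. The part of each in the results was not tested. In sham mice 8 rose and 1 fell on P7 against P21, where 13% of all genes rose, 13.4% fell and 26.3% were called. The members' share called in either direction thus lay below the background, but their calls were mostly rises. Of the 47, 40 had a positive log2 fold change, with a median of 0.45 over the members against 0.047 over all genes. At an unadjusted p below 0.05 there were 17 members. How many of all genes had such a direction or unadjusted p was not counted. The rises included Pdgfra, the receptor for platelet-derived growth factor on stellate cells and fibroblasts. It ran from 8.49 to 15.7 CPM on P7, median 12.6, and from 3.63 to 8.11 on P21, median 6.05. Its groups did not overlap, and the log2 fold change was 1.14 ± 0.24 (adjusted p = 3.45e-04, edgeR). Bgn, by 0.69 ± 0.18, and Col12a1, by 0.98 ± 0.32, also rose without overlap. Lamc3 (1.06 ± 0.32), Col5a3 (0.79 ± 0.23), Dcn (0.58 ± 0.20), Col5a1 (0.56 ± 0.21) and Tgfbi (0.45 ± 0.17) were the other rises, and Col27a1 fell by 0.97 ± 0.37. Of these 9 calls, Pdgfra, Bgn and Col5a3 held without each library in turn, and 5 members were called without sham P21 replicate 2, without sham P21 replicate 5 or without sham P7 replicate 3. Col1a1 (0.12 ± 0.49), Col3a1 (-0.02 ± 0.38), Timp1 (0.55 ± 0.70), Lox (0.13 ± 0.66), Acta2 (-0.20 ± 0.74), Des (0.60 ± 0.33) and Lrat (0.22 ± 0.20) were not called. Of 13 further stellate cell markers 5 rose in the same comparison, and their part in it was not tested. Of the 44 further matrix genes 6 rose and 3 fell, led by Pdgfa, a ligand of that receptor, which rose by 1.07 ± 0.16.

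On P7 against P36 in sham mice 3 members rose, Pdgfra (0.92 ± 0.26), Lamc3 (1.07 ± 0.36) and Bgn (0.58 ± 0.20), where 7.48% of all genes rose, 8.19% fell and 15.7% were called. The members' share called in either direction lay below the background, and their share of rises lay near it. Of the 47, 37 had a positive log2 fold change, a count not made over all genes. Only the Pdgfra call held without each library in turn, and Lamc3 was lost without any 1 of 6 libraries and Bgn of 8. Col1a1 (-0.47 ± 0.52), Col3a1 (-0.36 ± 0.41), Timp1 (-0.96 ± 0.66), Lox (-0.14 ± 0.69), Acta2 (1.09 ± 0.85), Des (0.58 ± 0.37) and Lrat (0.43 ± 0.22) were not called. The count was 1 without sham P36 replicates 1, 2 or 5 or sham P7 replicate 5, each left out alone.

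In SG mice Pdgfra was at 0.15 ± 0.25 on P7 against P21 and was not called, and whether that differs from sham was not tested. There 2 members were called, where 5.51% of all genes rose, 4.2% fell and 9.7% were called: Col4a1 rose by 0.74 ± 0.25 and Col27a1 fell by 1.41 ± 0.38. The Col4a1 call was lost without any of SG P21 replicates 2, 4 and 7 or SG P7 replicates 1, 4, 5, 6 and 7. On P7 against P36 in SG mice Col16a1 fell by 0.85 ± 0.30, where 10.2% of all genes rose, 8.65% fell and 18.8% were called. Leaving out 1 library gave from 0 to 3 calls: 0 without SG P36 replicate 3 or SG P7 replicates 1, 2, 4 or 5, 2 without SG P7 replicates 3 or 7, and 3 without SG P36 replicates 1 or 2. In these 2 comparisons Col1a1 was at -0.16 ± 0.51 and -0.75 ± 0.55, Col3a1 at -0.53 ± 0.40 and -0.81 ± 0.44, Timp1 at 0.48 ± 0.66 and -0.29 ± 0.69, and Lox at -0.12 ± 0.64 and -0.51 ± 0.69. Acta2 was at 0.51 ± 0.78 and 0.47 ± 0.88, Des at 0.48 ± 0.35 and 0.37 ± 0.39, and Lrat at -0.10 ± 0.20 and 0.21 ± 0.23, none called.

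In SG mice the same lower-fat diets were set against SG WD. On P21 25 of 47 members fell and 1 rose, where 17.1% of all genes fell, 12.4% rose and 29.5% were called. On P7 23 fell and 1 rose, where 19.7% fell, 14.2% rose and 33.9% were called. On P36 6 fell and 0 rose, where 10.1% fell, 6.7% rose and 16.8% were called, so that the members' share there lay near the background. The 3 comparisons share the 8 SG WD libraries. The median log2 fold changes over the members were -0.80, -0.83 and -0.39.

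Col1a1 ran from 6.68 to 96.4 CPM in SG WD, median 22.5, from 4.18 to 7.88 in SG P21, median 5.0, and from 3.42 to 6.40 in SG P7, median 5.16. In SG P36 it was 3.65, 4.03, 14.0 and 12.4. Only the SG P7 libraries lay wholly below SG WD. It fell by 2.67 ± 0.49 on P7, 2.51 ± 0.52 on P21 and 1.92 ± 0.59 on P36. Col1a2, Col3a1, Col5a2, Vim and Tgfb1 also lay wholly below SG WD on P7, and Tgfb1 fell by 1.19 ± 0.22 there, by 1.05 ± 0.23 on P21 and by 0.72 ± 0.26 on P36. Col3a1 fell by 2.16 ± 0.39, 1.63 ± 0.40 and 1.35 ± 0.46 on P7, P21 and P36, and Timp1 by 2.39 ± 0.57, 2.87 ± 0.64 and 2.10 ± 0.70. Lox fell by 2.18 ± 0.56 on P7 and by 2.07 ± 0.61 on P21, and was at -1.68 ± 0.67 on P36. SG WD replicate 1 held 7.74 CPM of Lox and the next library 1.29. Without it the log2 fold changes of Lox were -1.22 on P7 (adjusted p = 0.0544, edgeR), -1.14 on P21 (0.107) and -0.69 on P36 (0.446), none called, and limma-voom on all libraries called neither P7 (-1.81, 0.051) nor P21 (-1.50, 0.143). Of the remaining collagens Col4a1 fell by 1.5 ± 0.25 on P21, and Col16a1 and Col14a1 by 1.17 ± 0.26 and 0.99 ± 0.21 on P7. Thbs1 fell by 1.93 ± 0.44 on P7 and by 1.87 ± 0.47 on P21, Vim by 1.40 ± 0.27 and 0.90 ± 0.28, and Tagln by 1.22 ± 0.45 on P21. The Tagln call was lost with limma-voom, with only SG P21 and SG WD fitted, and without SG WD replicate 1 (-0.80, adjusted p = 0.166, edgeR), SG WD replicate 4 or SG P21 replicates 1, 2 or 7. Mmp13 fell by 4.53 ± 0.81, 3.47 ± 0.81 and 3.88 ± 0.98 on P7, P21 and P36, and the SG WD libraries held 27.2, 3.26, 0.82, 0.19, 0.90, 1.26, 0.32 and 1.84 CPM of it, so that replicate 1 stood far above the others. Without it Mmp13 was at -2.63 on P7 (adjusted p = 0.00117, edgeR), still called, and at -1.60 on P21 (0.0566) and -1.94 on P36 (0.0697), not called. Limma-voom also called it on P7 (-3.32, 0.0146) and not on P21 (-1.92, 0.123) or P36 (-2.33, 0.173).

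SG WD replicate 1 carries much of the SG WD level. It was the highest library of its group in 38 of the 47 members, and replicate 7 was the lowest in 21. Left out 1 at a time, the libraries left 18 of the 26 calls on P21, 18 of the 24 on P7 and 0 of the 6 on P36 standing in every case. Without replicate 1 the P36 comparison called 0 members in place of 6, and without SG P36 replicate 2 it called 1. Without replicates 1 and 4 together, a choice made after their values were seen, P21 called 14 members in place of 26 and P36 called 1. Des, which fell by 1.18 ± 0.34 on P21, had a log2 fold change of 0.003 without them, and of -0.46 without replicate 1 alone (adjusted p = 0.168, edgeR). Thbs2 was no longer called on P21 or P7 without replicate 1, nor Lum and Col6a1 on P7. Des was at -1.07 ± 0.39 on P36 and -0.70 ± 0.32 on P7, not called. Lrat was not called on any of the 3 diets (-0.05 ± 0.23 on P36, 0.26 ± 0.20 on P21 and 0.16 ± 0.19 on P7), and neither was Acta2 (-1.30 ± 0.89, -1.34 ± 0.77 and -0.83 ± 0.71). Col27a1 rose on P21, by 1.07 ± 0.36, a call lost without SG WD replicates 1 or 7 or SG P21 replicates 1 or 4, and Col5a3 on P7, by 0.69 ± 0.22, a call lost without SG P7 replicate 2.

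Among the 44 further matrix genes 21 fell and 1 rose on P21, 19 fell and 2 rose on P7, and 6 fell and 3 rose on P36 in SG mice. Tgfbr2 fell by 0.75 ± 0.15, 1.07 ± 0.14 and 0.70 ± 0.17 in that order. Of the 7 lipid-associated macrophage markers 5, 6 and 2 fell, and of the 6 Kupffer cell markers 3, 4 and 3. Of the 6 cholangiocyte markers 3, 2 and 2 fell, with 1 rise on P7, and their summed level reached 117 CPM in SG WD. Of the 6 adipocyte markers tested 2, 2 and 1 fell, with 2 rises on P36, and of the 6 hepatocyte markers 1, 2 and 1 rose. Of 5 skeletal muscle markers tested 4 fell on P21, 4 on P7 and 0 on P36, and of 5 smooth muscle markers tested 1, 0 and 0. The part of these cells in the members' changes was not tested.

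The operation itself was compared within each diet, and few members passed the test. On WD 2 of 47 fell and 0 rose in SG against sham, where 0.46% of all genes fell, 1.88% rose and 2.34% were called. Of the 47, 40 had a negative log2 fold change, all 16 collagens among them, with a median of -0.36 over the members against 0.02 over all genes, and 15 had an unadjusted p below 0.05. How many of all genes had such a direction or unadjusted p was not counted. Adamtsl2 ran from 9.99 to 41.8 CPM in sham WD, median 18.5, and from 3.53 to 13.3 in SG WD, median 8.73. The 2 ranges overlapped between 9.99 and 13.3 CPM, and the log2 fold change was -1.32 ± 0.27 (adjusted p = 0.00205, edgeR). Lamc3 ran from 1.13 to 11.1 CPM in sham WD, median 4.33, and from 1.13 to 3.06 in SG WD, median 2.25, and its log2 fold change was -1.11 ± 0.30 (adjusted p = 0.0314, edgeR). Both were no longer called in a fit of these 2 groups alone (adjusted p = 0.198 and 0.389, edgeR), and the cause of that loss was not tested.

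Col1a1 had a log2 fold change of -0.82 ± 0.43 for SG on WD, Col3a1 -0.75 ± 0.35, Timp1 -0.21 ± 0.49, Lox -0.02 ± 0.48, Lrat -0.46 ± 0.18, Acta2 0.58 ± 0.68 and Des 0.77 ± 0.31, and 0 of these 7 were called. The count depended on SG WD replicate 1. Without it 7 members were lower: Adamtsl2, Lamc3, Col6a3, Mmp2, Bgn, Eln and Col5a1. Without replicates 1 and 4 it was 6, with Col1a1 at -1.56 (adjusted p = 0.0419) and Lamc3 not called. Leaving out sham WD replicates 1, 3 or 4 or SG WD replicate 2, each alone, gave 4. Leaving out sham WD replicates 5, 6 or 7 or SG WD replicates 5 or 7 gave 1. The share of all genes called in these fits is not given here, so a shift particular to the members is not shown. Of the 44 further matrix genes Mmp9 and Mmp8, metalloproteinases of neutrophils, rose by 3.37 ± 0.58 and 4.27 ± 0.77, and Lama2, a laminin chain, fell by 1.05 ± 0.28.

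**Figure D3:**
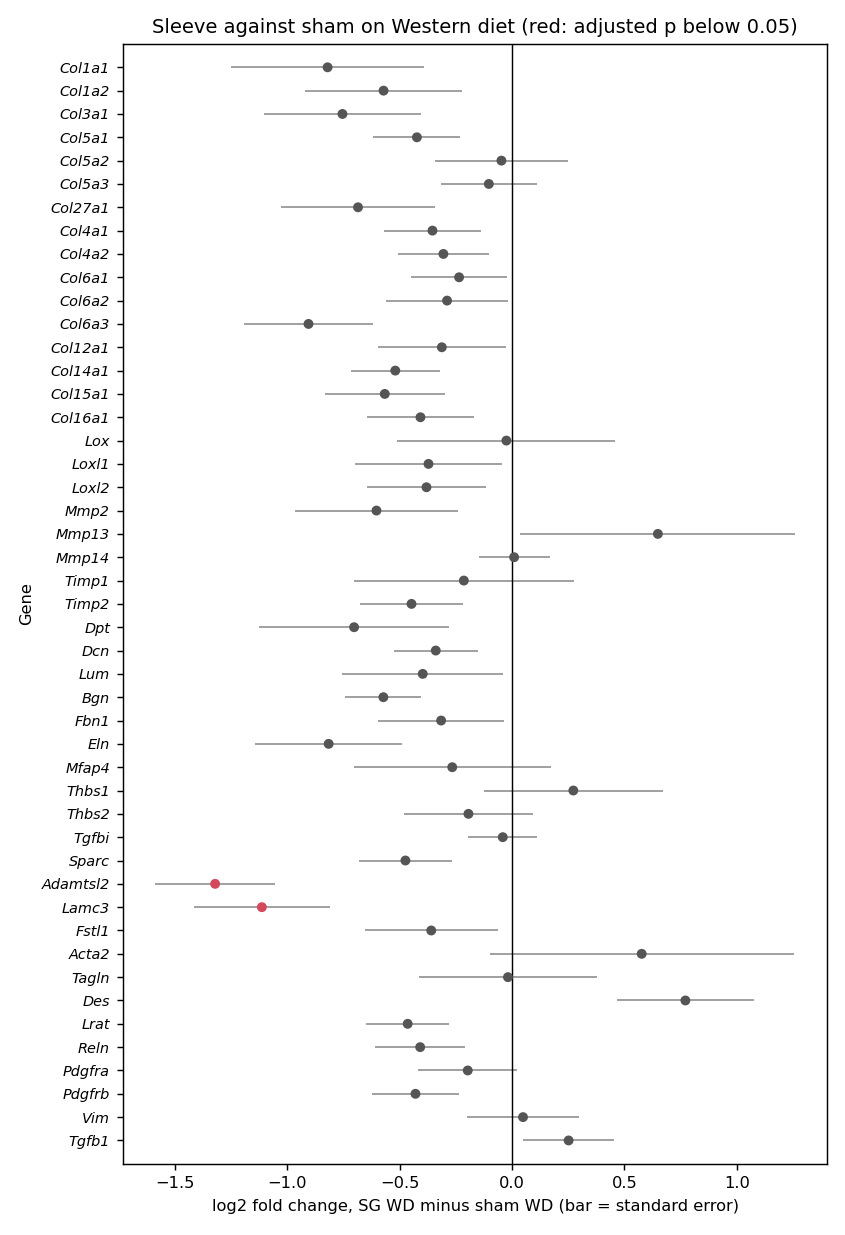
Log2 fold change of each of the 47 genes for SG against sham on WD, with bars for the standard error, in red where the adjusted p is below 0.05. Adamtsl2 and Lamc3 are the 2 red points, and 40 of the 47 lie below 0.

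On the other diets 0 members were called for SG against sham with edgeR. The counts at an unadjusted p below 0.05 were 6 on P36, 2 on P21 and 5 on P7, and of all genes 2.22%, 8.52% and 0% were called (1.22%, 3.87% and 0% higher, 1%, 4.65% and 0% lower). Of the 47 members 43 had a positive log2 fold change on P36, 35 on P21 and 6 on P7. The medians were 0.32, 0.14 and -0.25 over the members and 0.005, 0.031 and -0.002 over all genes. How many of all genes had such a direction or unadjusted p was not counted. SG P36 replicate 3 was the highest of its group in 21 of the 47, so the members are not separate results. Of the other fits, that of the P21 groups alone called 1 member. Without SG P36 replicate 2, P36 gave 1 call, and without sham P21 replicate 6, P21 gave 1. Col1a1 was at 0.02 ± 0.60, 0.02 ± 0.51 and -0.26 ± 0.48 on P36, P21 and P7, Col3a1 at 0.17 ± 0.47, 0.22 ± 0.40 and -0.28 ± 0.38, and Timp1 at 0.10 ± 0.74, 0.84 ± 0.73 and 0.77 ± 0.62. Lox was at 0.84 ± 0.75, 0.72 ± 0.68 and 0.47 ± 0.61, and Acta2 at 1.11 ± 0.94, -0.22 ± 0.78 and 0.49 ± 0.73. Des stood between -0.08 and 0.13 and Lrat between -0.30 and 0.02 over the 3 diets.

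In the authors' deposited table Adamtsl2 had a log2 fold change of -0.27 on P21, -0.02 on P36 and -0.58 on P7, with adjusted p-values of 0.686, 0.989 and 1.00. The difference between the effect of SG on WD and its mean effect on the 3 lower-fat diets was called for 0 members, where 0.143% of all genes were called (0.0995% higher and 0.0435% lower). At an unadjusted p below 0.05 there were 10, a count not made over all genes. Adamtsl2 (-1.02 ± 0.32) and Lamc3 (-1.05 ± 0.36) had adjusted p-values of 0.266 and 0.345 with edgeR. Col1a1 (-0.75 ± 0.53), Col3a1 (-0.79 ± 0.43), Timp1 (-0.79 ± 0.63), Lox (-0.70 ± 0.62), Lrat (-0.34 ± 0.22), Des (0.74 ± 0.37) and Acta2 (0.12 ± 0.83) were not called.

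Within the WD groups the members spread widely from mouse to mouse. Col1a1 varied 19.3-fold between the lowest and highest sham WD library and 3.34-fold in sham P21. Replicate 3 was the lowest sham WD library in 35 of the 47 members and replicate 6 the highest in 25. Within sham WD, Col1a1 varied with Trem2, a marker of lipid-associated macrophages, with a Pearson r of 0.966 and a Spearman rho of 0.952 on log2(CPM + 0.5) values (n = 8, exact permutation p = 1.49e-04 and 0.00114, adjusted over 8 relations 5.95e-04 and 0.00304). Without the 2 libraries farthest from the median of Col1a1, r was 0.95. Within SG WD the same pair had r = 0.276 and rho = 0.071 (exact permutation p = 0.517 and 0.882), and the difference between the groups was not tested. Col1a1 with Lrat had r = 0.635 in sham WD and 0.081 in SG WD (exact permutation p = 0.0945 and 0.854). The 8 relations, including those of Acta2 below, were chosen after the values were seen.

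Within SG WD Acta2 went with a smooth muscle gene and with Col1a1. It tracked Myh11, the smooth-muscle myosin, with r = 0.983 and rho = 1 (n = 8, exact permutation p = 2.48e-05 and 4.96e-05, adjusted 1.98e-04 for both), and r was 0.945 without the 2 farthest libraries. SG WD replicates 1 and 4 held 64.4 and 48.7 CPM of Acta2 with 82.7 and 40.6 of Myh11, while the other 6 held 0.91 to 9.29 of Acta2. Acta2 and Col1a1 also went together in SG WD, with r = 0.94 and rho = 1 (exact permutation p = 4.96e-04 and 4.96e-05, adjusted 0.00132 and 1.98e-04), and r was 0.977 without the 2 farthest libraries. That pair had r = 0.413 and rho = 0.524 in sham WD (exact permutation p = 0.309 and 0.197), and the difference between the groups was not tested. In sham WD the Acta2 and Myh11 relation had r = 0.764 and fell to -0.369 without 2 libraries, so it rests on replicate 2, which held 42.7 CPM of Acta2 and 26.9 of Myh11. The 6 smooth muscle markers summed to 12.5 to 48.6 CPM in sham WD and 6.27 to 151 in SG WD. SG WD replicate 4 also held 11.0 CPM of Acta1, the skeletal muscle actin, where every other WD library held at most 0.22. Of 5 skeletal muscle markers tested 4 were called higher in SG WD than in sham WD. The part of these tissues in the values of Acta2, Tagln and Des was not tested.

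**Figure D4:**
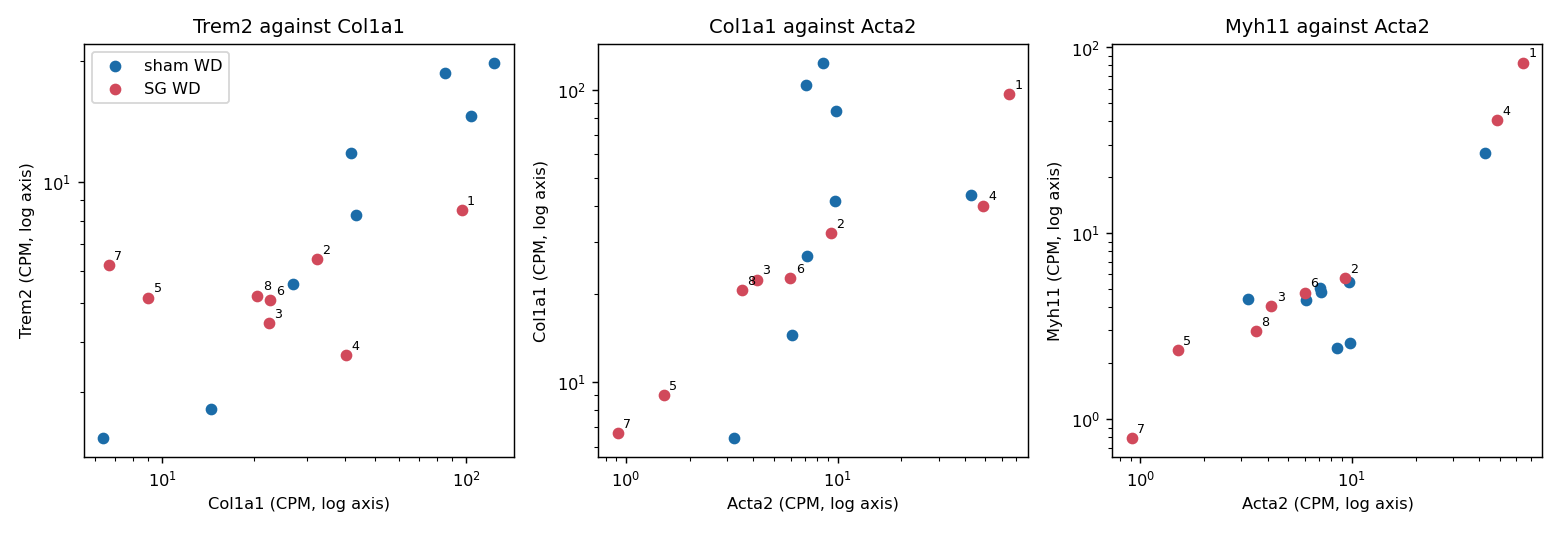
Levels (CPM, both axes log) within the WD groups, blue for sham and red for SG with replicate numbers: Trem2 against Col1a1, Col1a1 against Acta2, and Myh11 against Acta2. In sham WD, Trem2 goes with Col1a1 (r = 0.966), and SG WD replicates 1 and 4 stand at the top for Acta2 and Myh11.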

How the data were processed

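Liver RNA of 62 labelled mice was sequenced as stranded, polyadenylated libraries, per the labels' protocols, and 57 with a column of counts were used; 5 were not analysed here. The authors deposited expected counts per gene, made with RSEM per the sheet's name, for GRCm39 per the submitters' processing notes, which also list R 4.4.1, edgeR and limma with no role. The aligner and the annotation are not given in the sources used here. Such counts divide a read among the genes it maps to, so close paralogs are less certain. A second table by the authors holds log2 fold changes, p-values and an F score for the operation on each lower-fat diet, with no model stated. Titles number each liver; where mice shared a cage, p-values do not account for it.

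Expected counts were rounded and fitted in R 4.3.3 with edgeR 4.0.16 (filterByExpr, TMM, quasi-likelihood F test, 1 mean per group). The fit held 56 libraries in 9 groups, with 47 residual degrees of freedom and a biological coefficient of variation of 28.2%. The p-values of this F test were adjusted over 16087 genes (Benjamini-Hochberg). Of 156 pairs of libraries within groups 0 looked like 1 library deposited again (chi-square over genes with 20 or more counts, at least 9.34 per degree of freedom). Symbols came from the authors' table or GENCODE M21, whose exon lengths on GRCm38 gave levels per kilobase.

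The members, role groups and marker lists were chosen with earlier results of these data known. Named in each comparison were Col1a1, Col3a1, Timp1, Lox, Acta2, Des and Lrat, and in each role group the called member with the largest change and that with the lowest adjusted p. Most other members are given beside them. Among further matrix genes up to 3 with the lowest adjusted p were open to naming. Other settings tried were RLE scaling, a filter of only 1 count, DESeq2 1.42.0, limma-voom (limma 3.58.1), a fit of the compared groups alone, leaving out each library, and leaving out SG WD replicates 5 and 7. Leaving out SG WD replicates 1 and 4 was added after seeing the data. The fitting steps were tested on simulated counts.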

Additional observations from a re-analysis of the deposited data

Results flagged for a closer look

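Dixon's criterion was applied to CPM of the 7 genes named throughout, within groups of 4 to 10 libraries. In 13 of 63 sets of values it found a library far from the rest. Its rate of about 1 in 20 sets by chance holds for normally distributed values. CPM was not log-transformed here, so that rate cannot be set against the 13 of 63. These sets are not independent, since the same libraries recur. SG WD replicate 1 stood apart for 5 genes: Col1a1 at 96.4 CPM (next library 40.1), Col3a1 at 208 CPM (109.6), Timp1 at 8.44 CPM (3.39), Lox at 7.74 CPM (1.29) and Des at 53.0 CPM (21.8).

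Acta2 had a library far above its group in 5 groups: 42.7 CPM in sham WD replicate 2, 18.6 in SG P36 replicate 3, 29.1 in sham P21 replicate 6, 22.7 in sham P7 replicate 4 and 36.4 in SG P7 replicate 7. Col3a1 was at 33.9 CPM in sham P7 replicate 3, Timp1 at 2.23 CPM in sham P36 replicate 3 and Lox at 0.97 CPM in SG P7 replicate 7.

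The single SG chow library, which entered no comparison, held 0.51 CPM of Timp1, above the 0.16 CPM of the highest sham chow library. Outside the 7 genes, it held 13.4 CPM of Adamtsl2, above the 4.08 to 6.55 CPM of sham chow, whereas on WD Adamtsl2 was lower in SG. This rests on 1 library and was not tested.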

How the results depend on the processing

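The counts of called members for WD against chow and for P36, P21 and P7 against WD in sham mice stayed within 1.5 times the reported count under every alternative run. Without filter beyond 1 count, calls were 0 for the lower-fat mean against chow (1 reported), 5 for sham P7 against P21 (9), 1 for sham P7 against P36 (3), 1 for SG P7 against P21 (2) and 0 for SG P7 against P36 (1). DESeq2 gave 6 for the lower-fat mean and 3 for SG P7 against P36. Limma-voom gave 0 for the lower-fat mean, 3 for SG P36 against SG WD (6), 16 for SG P21 against SG WD (26), 1 for SG P7 against P21, 0 for SG P7 against P36 and 1 for SG WD against sham WD (2). A fit of the compared groups alone gave 9 for the lower-fat mean, 16 for sham P7 against P21, 0 for SG P36 against SG WD, 5 for SG P7 against P21, 3 for SG P7 against P36, 0 for SG WD against sham WD and 1 for SG P21 against sham P21 (0). Without SG WD replicates 5 and 7 SG WD against sham WD gave 1. Without replicates 1 and 4 it gave 6, SG P36 against SG WD 1 and SG P21 against SG WD 14, and Des on SG P21 turned from a fall to 0.003.

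Leaving out 1 library gave 32 to 41 calls for WD against chow, and 28 to 40, 36 to 39 and 22 to 33 for sham P36, P21 and P7 against WD. It gave 0 to 3 for the lower-fat mean, 5 to 9 for sham P7 against P21 and 1 to 4 for sham P7 against P36. In SG mice it gave 0 to 9, 18 to 28 and 19 to 28 for P36, P21 and P7 against WD, 1 to 3 for P7 against P21 and 0 to 3 for P7 against P36. For SG against sham it gave 1 to 7 on WD, 0 to 1 on P36, 0 to 1 on P21 and 0 to 0 on P7, and 0 to 0 for the difference of effects. Of the values of single genes under the other alternatives, 881 kept direction and side of the threshold, 39 lost the call, 10 gained one and 1 reversed. The causes of these shifts were not tested. Shares of all genes called under each setting are not given here, so no shift is shown to be particular to the members. No paired analysis was possible because replicate numbers were given in accession order and pair no mice.

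Few counts, 6, 14 and 54 over the 4 chow libraries, limit the precision of Timp1, Mmp13 and Lox there, although these libraries are not shallow. Having 4 of them limits what can be called against chow.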
